A study of Homo sapiens with 8 samples.

Results

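YAP1, WWTR1 (which encodes TAZ), the factors TEAD1, TEAD2, TEAD3 and TEAD4, and the target genes CTGF, CYR61, AMOTL2 and ANKRD1 were described across 8 human cancer cell lines. These 10 genes were selected by symbol in the deposited tables, 1 Ensembl identifier each, out of 58202 identifiers. No member symbol was repeated, so the highest mean, which the rule uses to choose among repeated symbols, chose none of them, but the genes were proposed with results of these lines known, and their levels are given as a description. All 10 were among the 15650 genes that were tested, those whose FPKM was not below 1 in 2 lines or more. FPKM is a fragment count scaled to transcript length and to the mapped fragments of the library, so levels of different genes can be set side by side.

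The lines express ERBB4, a receptor tyrosine kinase, and the series was designed around the response to ibrutinib, a drug that blocks Bruton's tyrosine kinase. The lung lines were H146, of small cell origin, H522, of non-small cell origin, and H661, of large cell origin. KLE came from an endometrial adenocarcinoma and HEC59 from an endometrial carcinoma, H716 from a colorectal adenocarcinoma of the cecum, COV318 from a serous ovarian carcinoma and 1321N1 from an astrocytoma. The labels name no drug treatment and no altered allele for any line. Cells spent 48 hours in plates before extraction, at passages between 3 and 15, and each line had 1 library. The design counts 4 responsive and 4 non-responsive lines but the labels do not say which, so no line was given a response. No level has a replicate error, and neighbouring lines in an order of levels cannot be told apart by any spread.

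Between 12205 and 13300 genes per line reached an FPKM of 1, and none of 10 housekeeping genes was listed at 0 in any line. The files hold no counts, so absolute depth is unknown. The steps of low values gave relative depths between 1 in KLE and 2.69 in 1321N1, with 1.48 in H146 and 1.27 in H716. Of the markers of the labelled tissues, surfactant genes SFTPA1, SFTPA2, SFTPB and SFTPC were listed at 0 in all 3 lung lines, and NKX2-1, a lung lineage factor, was at 11.2 in H661 and at most 0.0204 in H522 and H146. The Mullerian factor PAX8 reached 45.7 in KLE, 185 in HEC59 and 72.6 in COV318, and was at 5.84 in 1321N1. Of the other Mullerian markers, SOX17 and EMX2 were at 8.72 or more in these gynecologic lines and at most 0.311 elsewhere. WT1 was at 28.7 in KLE and 5.47 in COV318 but at 0.408 in HEC59, and at 12.4 in the lung line H522. MUC16 was at 8.18 in KLE, 2.97 in HEC59 and 0.111 in COV318. The intestinal cadherin gene CDH17 stood at 137 in H716, but the other intestinal markers were low there. CDX2 was at 1.31, VIL1 at 1.07 and LGALS4 at 0.376, and CDX1 was listed at 0. VIL1 was highest in H146, at 8.74. Among glial markers, 1321N1 had GFAP at 3.10 and OLIG2 at 0.00771, with OLIG1, S100B and AQP4 listed at 0. In H146 GFAP was at 1.57 and AQP4 at 4.46.

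In the Hippo pathway, the kinases STK3 and STK4 (MST2 and MST1) and LATS1 and LATS2 form a cascade that phosphorylates YAP and TAZ and keeps them in the cytoplasm. When the cascade is inactive, YAP and TAZ enter the nucleus, bind TEAD factors, which contact DNA, and raise transcription of targets that include CTGF and CYR61 (now named CCN2 and CCN1), secreted matrix proteins, and ANKRD1, a nuclear ankyrin repeat protein. AMOTL2 encodes an angiomotin family protein that binds YAP and is itself a target. The pathway is controlled largely through protein location and modification, which RNA levels do not show.

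TEAD proteins recognise the element GGAATG. It was searched on both strands, as GGAATG and CATTCC, which do not overlap each other, in RefSeq windows from 250 bases before to 50 bases after a gene's start (build GRCh38.p14). Windows matched 7 of the 10 genes, and 4 of their 10 windows held the element. CYR61, TEAD1 and TEAD4 had no window and were not searched. Of all 35116 windows in the table, 14.0% held it at least once, 1.36% at least 2 times and 44 windows, or 0.125%, at least 3 times. The windows of the target genes that held it are printed 5′ to 3′ on the strand of the gene, with the element in capitals. CTGF (chr6:131951323-131951622, minus strand) held it 3 times, from bases 169, 104 and 95 before the start. ANKRD1 (chr10:90921038-90921337, minus strand) held it 2 times, from bases 220 and 128 before the start. The second of 2 windows of AMOTL2 (chr3:134374398-134374697, minus strand) held CATTCC once, from base 69 before the start. YAP1 held it once as well, from base 162 before its start. These letters describe the windows and do not show binding.
CTGF: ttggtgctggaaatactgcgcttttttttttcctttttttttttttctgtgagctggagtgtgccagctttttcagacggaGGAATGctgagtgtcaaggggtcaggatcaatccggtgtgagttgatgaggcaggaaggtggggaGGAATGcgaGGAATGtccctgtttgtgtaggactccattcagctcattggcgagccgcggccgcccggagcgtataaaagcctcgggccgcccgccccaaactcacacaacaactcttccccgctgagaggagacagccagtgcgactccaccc
ANKRD1: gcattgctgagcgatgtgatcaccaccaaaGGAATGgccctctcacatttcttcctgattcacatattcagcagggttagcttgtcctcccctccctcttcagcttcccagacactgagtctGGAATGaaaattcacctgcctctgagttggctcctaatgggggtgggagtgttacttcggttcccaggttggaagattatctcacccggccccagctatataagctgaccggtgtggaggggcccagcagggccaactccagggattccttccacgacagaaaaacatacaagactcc
AMOTL2: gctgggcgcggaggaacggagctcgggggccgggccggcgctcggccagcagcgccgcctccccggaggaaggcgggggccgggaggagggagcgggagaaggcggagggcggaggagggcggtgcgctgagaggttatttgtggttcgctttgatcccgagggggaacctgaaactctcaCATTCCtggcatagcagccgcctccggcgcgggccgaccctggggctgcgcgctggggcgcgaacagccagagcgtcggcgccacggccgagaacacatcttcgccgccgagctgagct

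The coactivator RNAs were low in H146 and H716 and higher in the other lines. YAP1 (ENSG00000137693) was at an FPKM of 0.0586 in H146 and 6.11 in H716, and at 29.3 in 1321N1, 33.1 in H661, 35.5 in KLE, 39.2 in HEC59, 41.8 in COV318 and 65.0 in H522. The level in H716 was 104 times that in H146, and that of 1321N1, the next line up, was 4.80 times that in H716. Across the 6 highest lines YAP1 spanned only 2.22-fold. WWTR1 (ENSG00000018408) was at 0.220 in H146 and 1.12 in H716, and at 12.7 in H522, 23.1 in H661, 33.2 in COV318, 44.0 in KLE, 57.4 in HEC59 and 60.4 in 1321N1. H146 and H716 were thus the lowest lines for both coactivators, whereas H522, the highest for YAP1, was the third lowest for WWTR1.

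The balance of the coactivators varied among the lines other than H146 and H716. YAP1 made up 83.6% of the summed FPKM of YAP1 and WWTR1 in H522, 58.9% in H661 and 55.8% in COV318, and 44.6% in KLE, 40.6% in HEC59 and 32.7% in 1321N1. The sum itself was at 56.2 to 96.5 in these lines, against 7.23 in H716 and 0.279 in H146. At these low sums the share of YAP1 was 84.5% in H716, the highest of any line, and 21.0% in H146, the lowest. In a bulk library, fewer cells with the RNA and less RNA per cell cannot be told apart. Antisense genes overlap exons of both in GENCODE v29, and the sources used here do not state whether reads were assigned by strand. WWTR1-AS1 was listed at 0 in H146 and was at 0.952 in H716 and 4.33 to 24.8 elsewhere, and RP11-864G5.3, opposite YAP1, was listed at 0 in H146, at 0.199 in H716 and at 5.38 to 9.55 elsewhere. Reads in the overlapping exons may therefore belong to either the gene or its antisense partner, and the size of this share is unknown.

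**Figure D1:**
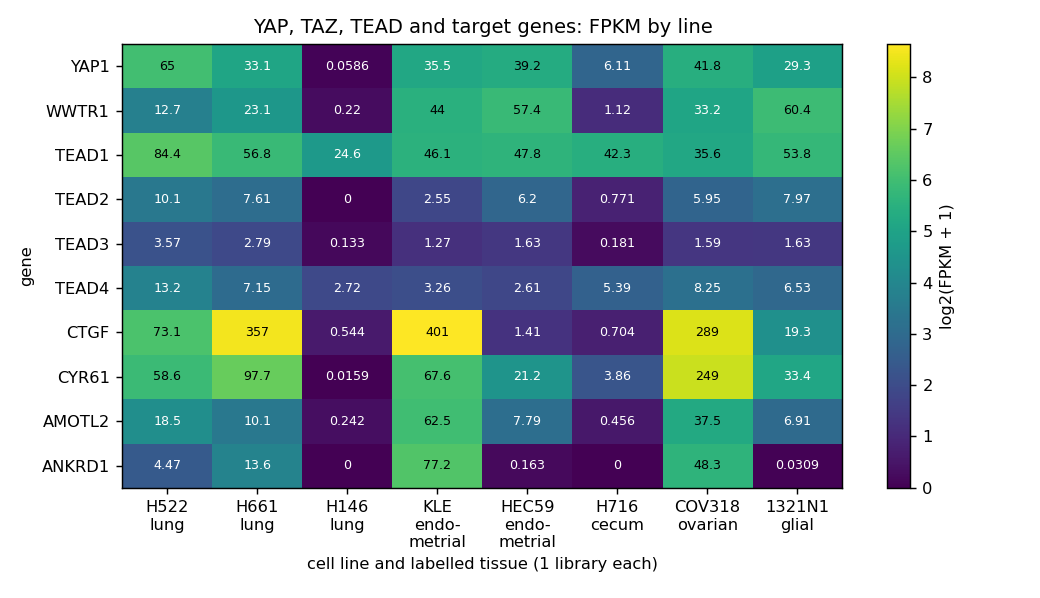
Levels of the 10 genes (rows) in the 8 lines (columns, 1 library each, with the labelled tissue). Colour is log2(FPKM + 1) and the printed value is FPKM; YAP1 and WWTR1 were at 0.0586 and 0.220 in H146 and at 6.11 and 1.12 in H716, while TEAD1 was at 24.6 or more in every line.

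TEAD1 was the most abundant of the 4 TEAD factors in every line and varied little. TEAD1 (ENSG00000187079) was at 24.6 in H146, 35.6 in COV318, 42.3 in H716, 46.1 in KLE, 47.8 in HEC59, 53.8 in 1321N1, 56.8 in H661 and 84.4 in H522, a span of 3.43-fold. It made up 69.3% (COV318) to 89.6% (H146) of the summed TEAD FPKM. H716, with little coactivator RNA, lay inside the range of the other lines for TEAD1.

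TEAD4 also reached an FPKM of 1 in all lines, and TEAD2 and TEAD3 did so in all but H146 and H716. TEAD4 (ENSG00000197905) was at 2.61 in HEC59, 2.72 in H146, 3.26 in KLE, 5.39 in H716, 6.53 in 1321N1, 7.15 in H661, 8.25 in COV318 and 13.2 in H522. TEAD2 (ENSG00000074219) was listed at 0 in H146 and was at 0.771 in H716, 2.55 in KLE, 5.95 in COV318, 6.20 in HEC59, 7.61 in H661, 7.97 in 1321N1 and 10.1 in H522. TEAD3 (ENSG00000007866) was at 0.133 in H146 and 0.181 in H716, and at 1.27 to 3.57 in the other 6 lines. H522 was therefore the highest line for all 4 TEAD factors and for YAP1. An exon of CD37 lies opposite TEAD2, and CD37 was at most 1.28 in any line.

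The 4 target genes were lowest in H146 and H716, at an FPKM of at most 3.86, and spread widely elsewhere. CTGF (ENSG00000118523) was at 0.544 in H146, 0.704 in H716 and 1.41 in HEC59, and at 19.3 in 1321N1, 73.1 in H522, 289 in COV318, 357 in H661 and 401 in KLE. CYR61 (ENSG00000142871) was at 0.0159 in H146 and 3.86 in H716, and at 21.2 in HEC59, 33.4 in 1321N1, 58.6 in H522, 67.6 in KLE, 97.7 in H661 and 249 in COV318. These genes belong to 1 family, and both had H661, KLE and COV318 as their 3 highest lines. RP11-69I8.3, an antisense gene opposite CTGF, was listed at 0 in H146 and H716, was at 0.117 in HEC59 and reached 13.5 in H661 and 11.6 in KLE. Reads in exons that it shares with CTGF may belong to either gene.

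AMOTL2 and ANKRD1 were highest in KLE and COV318. AMOTL2 (ENSG00000114019) was at 0.242 in H146 and 0.456 in H716, and at 6.91 in 1321N1, 7.79 in HEC59, 10.1 in H661, 18.5 in H522, 37.5 in COV318 and 62.5 in KLE. ANKRD1 (ENSG00000148677) was listed at 0 in H146 and H716, was at 0.0309 in 1321N1 and 0.163 in HEC59, and at 4.47 in H522, 13.6 in H661, 48.3 in COV318 and 77.2 in KLE. HEC59 and 1321N1, the lines with the highest WWTR1, were thus the lowest for ANKRD1 and for CTGF after H146 and H716. RPL39P5, which overlaps an exon of AMOTL2 on the same strand, was at 1.32 in KLE and at most 0.421 elsewhere. Reads in the exon that it shares with AMOTL2 may belong to either gene.

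Among the lines other than H146 and H716, target levels ran in a different order from coactivator levels. The summed FPKM of the 4 targets per summed FPKM of YAP1 and WWTR1 was 8.50 in H661, 8.31 in COV318, 7.65 in KLE and 1.99 in H522, and 0.665 in 1321N1 and 0.317 in HEC59. The endometrial lines KLE and HEC59 had similar YAP1, at 35.5 and 39.2, and similar WWTR1, at 44.0 and 57.4, but their CTGF levels differed by 284-fold. With 1 library each, this difference has no replicate check.

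**Figure D2:**
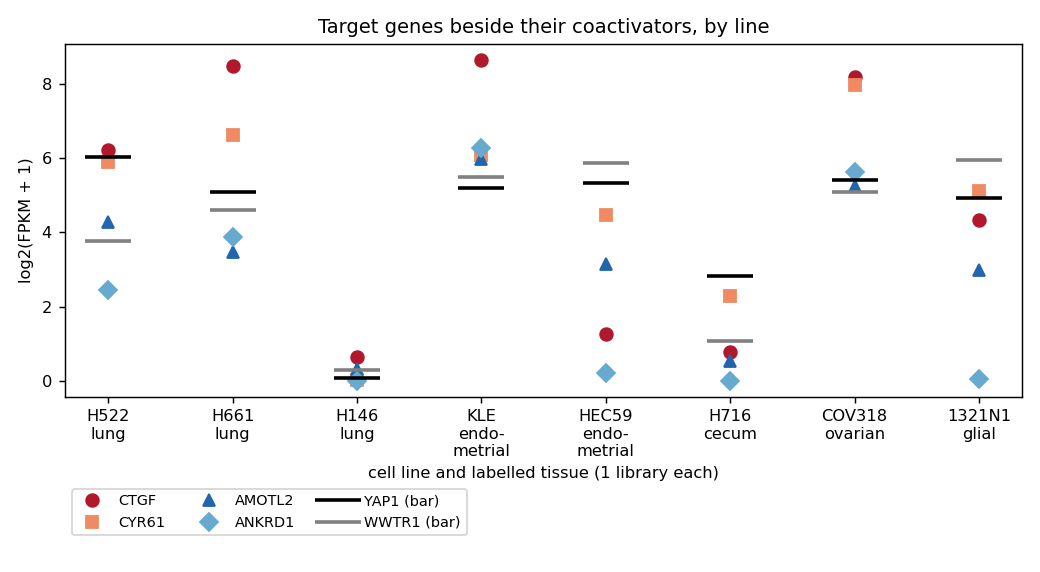
Level of CTGF, CYR61, AMOTL2 and ANKRD1 (points) and of YAP1 and WWTR1 (short horizontal bars) in each line on the log2(FPKM + 1) scale, 1 library per line. All 6 genes are low in H146 and H716; in HEC59 and 1321N1 the bars are high while CTGF stands at an FPKM of 1.41 and 19.3 and ANKRD1 at 0.163 and 0.0309.

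The levels of the 4 targets resembled each other, also among the lines other than H146 and H716. Over the 8 lines, Pearson's r of log2(FPKM + 1) was 0.748 to 0.906 in the 6 pairs of targets and 0.430 to 0.904 in the 8 pairs of a coactivator with a target. H146 and H716 are farthest from the median of YAP1 and of WWTR1, and without them, over 6 lines, r stayed at 0.608 to 0.897 between targets but was -0.457 to 0.241 between coactivators and targets. YAP1 and WWTR1 had r = 0.855 (rho = 0.333) over 8 lines and r = -0.755 over the 6. These values are descriptions over lines that differ in tissue and depth, and the shared pattern of all members over 8 lines rests on H146 and H716: over all 45 pairs the median r was 0.674 with them and 0.0689 without.

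Compared with other genes, most members were among the more variable. On the log2(FPKM + 1) scale their range over the lines had a median of 5.66, against 1.94 over all genes tested, and 9 of 10 exceeded 1.94. TEAD3 and TEAD4 did so only narrowly, at 2.01 and 1.98, ranges that 47.0% and 48.2% of tested genes exceeded. CTGF spanned 8.02 and CYR61 7.94, ranges that 0.537% and 0.575% of tested genes exceeded, whereas 59.5% of tested genes had a wider range than TEAD1. H146 had the lowest value of 9 of the 10 members, with ANKRD1 at 0 in H716 too, against 23.1% of all genes tested.

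For each line, a gene was called lower when it lay at least 4-fold under the median of the other 7 lines on the log2(FPKM + 1) scale. H146 and H716 had the same 7 members past this limit, YAP1, WWTR1, TEAD2, CTGF, CYR61, AMOTL2 and ANKRD1, while 4.09% of tested genes passed in H146 and 3.15% in H716. The median difference over the 10 members was -3.003 in H146 and -2.41 in H716, against -0.13 and -0.04 over all genes tested. In HEC59 CTGF and ANKRD1 passed (2.63% of tested genes) and in 1321N1 ANKRD1 alone (2.09%). On the high side, CTGF, CYR61, AMOTL2 and ANKRD1 passed in COV318 (4.12% of tested genes), CTGF, AMOTL2 and ANKRD1 in KLE (4.72%), CTGF and ANKRD1 in H661 (3.58%) and ANKRD1 in H522 (2.60%). No member passed on the high side in H146 (5.04% of tested genes), H716 (4.76%), HEC59 (3.64%) or 1321N1 (4.89%), nor on the low side in H522 (2.86%), H661 (1.96%), KLE (1.09%) or COV318 (1.02%). The members were proposed with these levels known, so nothing follows from the shares.

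Neuroendocrine markers moved with the low coactivator levels. Of 9 such markers, 8 reached an FPKM of 1 in H146 and 7 in H716, with summed levels of 335 and 291, and 1 or 2 did in each of the other lines, with sums of 2.96 to 44.5. NEUROD1, a neuroendocrine transcription factor, was at 0.0906 in H146 and listed at 0 in H716. Of 10 mesenchymal markers, 5 reached 1 in H146 and 3 in H716, with sums of 35.5 and 463, and 5 to 10 did in the other lines, with sums of 225 to 4335. Of 8 epithelial markers, 8 reached 1 in H146 and 4 in H716, with sums of 456 and 78.0, and 2 to 8 did in the other lines, with sums of 16.1 to 2280. The part of these cell states in the levels of the members was not tested.

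Other YAP and TAZ targets, a list of 18 genes without the members and without BIRC5, which cycling cells express, were also sparse in H146 and H716. In H146 4 of the 18 reached an FPKM of 1 and in H716 10, against 13 in H522, 14 in H661, 16 in KLE, 13 in HEC59, 18 in COV318 and 16 in 1321N1. The target score, their mean of log2(FPKM + 1), was 0.96 in H146 and 1.94 in H716, and 2.53 in H522, 2.96 in HEC59, 3.57 in H661, 3.90 in KLE, 3.99 in COV318 and 4.30 in 1321N1. Against the mean of YAP1 and WWTR1 it had r = 0.882 and rho = 0.690 over the 8 lines, and r = 0.301 over 6 lines without H146 and H716.

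Unlike CTGF and ANKRD1, the score was highest in 1321N1. Over the 6 lines it had r = 0.590 with WWTR1 and -0.797 with YAP1. AXL, a receptor tyrosine kinase, was at 137 in 1321N1, at most 10.9 elsewhere and at 0.0974 in HEC59. IGFBP3, which encodes an IGF-binding protein, was at 184 in KLE, 167 in COV318 and 93.6 in HEC59, and at 0.135 in H146 and 0.308 in H716. TGFB2, a TGF-beta ligand, was at 115 in H661 and listed at 0 in HEC59. CRIM1 was at 127 in KLE, 21.0 in H716 and 0.541 in H146, and NT5E, an ectoenzyme that forms adenosine, at 87.4 in 1321N1, 29.8 in H716 and 0.170 in H146. CRIM1 and NT5E in H716 therefore lay inside the range of the 6 lines with more coactivator RNA, while CTGF, AMOTL2 and ANKRD1 were under 1 there.

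**Figure D3:**
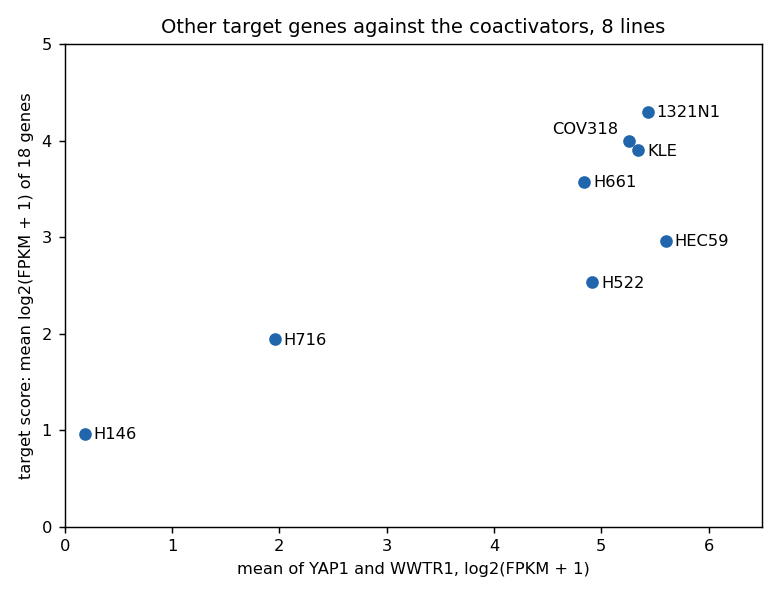
Target score (mean log2(FPKM + 1) of 18 target genes, vertical axis) against the mean log2(FPKM + 1) of YAP1 and WWTR1 (horizontal axis), 1 point per line. H146 and H716 lie apart at the lower left, and the other 6 lines span 2.53 to 4.30 in score at coactivator means of 4.84 to 5.60.

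Most of the kinase core was present in every line. Of its 7 genes, 6 reached an FPKM of 1 in all 8 lines. The mean of log2(FPKM + 1) over the 7 was lowest in H146, at 3.59, and next lowest in H716, at 4.27, against 4.41 to 4.95 elsewhere. H146 had the lowest value of 4 of the 7, against 23.1% of all genes tested. LATS1 was at 16.3 in COV318, 36.1 in HEC59 and 25.0 to 28.5 in the others. LATS2, itself a YAP target and also in the target list, was at 0.00626 in H146 and 0.0540 in H716, and at 2.04 in KLE, 2.70 in 1321N1, 3.33 in COV318, 4.79 in HEC59, 11.0 in H522 and 12.1 in H661. MOB1A, which activates the LATS kinases, was at 27.5 in H146 and 47.6 to 161 elsewhere, STK3 at 6.39 to 26.1, STK4 at 11.8 to 45.2, and the scaffold gene SAV1 at 11.5 to 25.4 in 7 lines and 63.1 in KLE. LATS2 alone of the core was close to 0 where the coactivators were low.

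Upstream regulators varied in differing orders, but their mean of log2(FPKM + 1) was lowest in H146, at 2.12, and next lowest in H716, at 2.52. In the other lines it was 2.76 to 3.26. H146 had the lowest value of 7 of the 21 tested, against 23.1% of all genes tested. PTPN14, a phosphatase that binds YAP and is also in the target list, was at 0.113 in H146 and 2.05 in H716, and at 33.9 to 50.1 in the other 6 lines. AJUBA, a LIM protein that inhibits LATS, was at 0.261 in H146, 4.49 in H716 and 5.03 in HEC59, and reached 64.8 in COV318 and 67.9 in KLE. WWC2, of the KIBRA family, was at 0.0413 in H146 and 34.6 in H716, while WWC1, which encodes KIBRA, was at 0.120 in 1321N1, 1.16 in H716, 8.79 in H146 and 50.5 in HEC59. AMOT, a relative of AMOTL2, was highest in H716, at 41.0, and was at 9.75 in H146. VGLL4, a TEAD cofactor that competes with YAP, was at 6.97 to 21.1 in all lines. VGLL3 was at 46.6 in 1321N1, 33.2 in H661 and at most 5.72 elsewhere, and VGLL1 and VGLL2 were below 1 in every line.

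**Figure D4:**
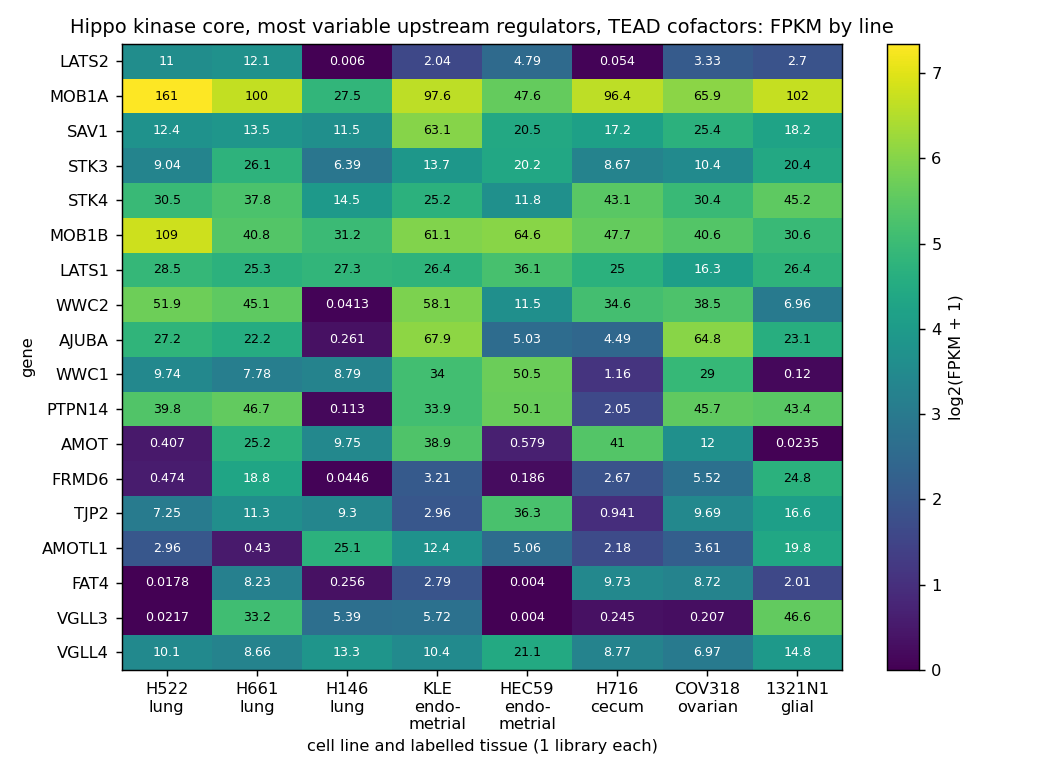
Levels of the 7 kinase core genes, the 9 upstream regulators with the widest range and the TEAD cofactors VGLL3 and VGLL4 in the 8 lines; colour is log2(FPKM + 1), printed values are FPKM, 1 library per line. LATS2 and PTPN14 are low in H146 and H716, whereas LATS1 is at 16.3 or more throughout.

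By tissue, no member passed the test between the lung lines and the other 5 lines. The groups overlapped for all 10 genes, against 4.30% of tested genes without overlap, and none passed the limma fit across all genes, in which 4 genes, or 0.0256%, were called. At an unadjusted p under 0.05 there was also no member, against 5.94% of tested genes. YAP1 averaged 3.74 ± 3.20 on the log2(FPKM + 1) scale in the lung lines (SD, n = 3) and 4.74 ± 1.08 in the others (SD, n = 5), a log2 difference of -0.998 (95% interval -3.74 to 1.74, limma adjusted p = 0.948). WWTR1 averaged 2.89 ± 2.29 in the lung lines and 4.70 ± 2.05 in the others, a difference of -1.81 (95% interval -4.65 to 1.04, limma adjusted p = 0.878). For CTGF the difference was 0.46 (95% interval -4.55 to 5.48), so a change of either sign and of many fold lies within the interval.

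The lung lines were divided among themselves. H522 and H661 were at 65.0 and 33.1 for YAP1 and H146 at 0.0586. Without H146 the differences of YAP1, TEAD2, CYR61, AMOTL2 and ANKRD1 turned positive, at 0.83, 0.999, 1.08, 0.29 and 0.72, and that of WWTR1 was -0.51. The median over the 10 members was then 0.86, against -0.21 with H146, and no member was called, while 16 of all genes were. Over the other lists, none of 7 core genes, 21 upstream regulators, 2 cofactors and 19 targets (BIRC5 included) was called in either direction. Of the core 3 had a higher and 4 a lower mean in the lung lines, and of the upstream regulators 9 a higher and 12 a lower one. Of the targets 13 had a lower and 6 a higher mean in the lung lines (median difference -1.11, against -0.02 over all genes tested). Without H146 the split of the targets was 10 lower and 9 higher with a median of -0.017 (0.026 over all genes tested), 6 of 7 core genes and 13 of 21 upstream regulators had the higher mean in H522 and H661, and with any other line left out the median of the targets was -1.57 to -0.80. F3, GADD45A and CCDC80 of the targets did not overlap with the other lines, against 4.30% of all genes tested. The gap for CCDC80 was narrow and below an FPKM of 1, between 0.772 (H661, the highest lung line) and 0.866 (HEC59, the lowest other line). For F3 the highest lung value was 0.705 (H522) and the lowest other value 1.64 (1321N1). In the core, SAV1 did not overlap either (log2 difference -0.97, SE 0.446, limma adjusted p = 0.821). GADD45A, a stress response gene, stood at 7.39 in H146, 5.22 in H522 and 3.82 in H661, against 10.3 to 45.2 elsewhere (-1.81 on the log2 scale with an SE of 0.466, limma adjusted p = 0.472).

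The endometrial lines gave no call among the members either. None of the 10 passed the limma fit, in which 1 gene, or 0.00639%, was called, and none had an unadjusted p under 0.05, against 4.82% of tested genes. WWTR1 averaged 5.68 ± 0.26 on the log2 scale in KLE and HEC59 (SD, n = 2) and 3.46 ± 2.28 in the other lines (SD, n = 6), a difference of 2.22 (95% interval -0.91 to 5.34, limma adjusted p = 0.954). TEAD4 averaged 1.97 ± 0.17 in the endometrial lines and 2.93 ± 0.64 in the others (difference -0.95, 95% interval -2.12 to 0.21, limma adjusted p = 0.954). H146 alone of the other lines overlapped with them for TEAD4.

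All 10 genes overlapped between the endometrial and the other lines, against 6.96% of tested genes without overlap. Among the lists no gene was called: the endometrial mean was higher for 5 of 7 core genes, 11 of 21 upstream regulators and 11 of 19 targets (median difference of the targets 0.22, against -0.11 over all genes tested). That median was -0.064 without H661, -0.14 without H146 and -0.23 without KLE, against -0.113, -0.137 and -0.210 over all genes tested. With any other line left out it was 0.17 to 0.97, against -0.110 to -0.074 over all genes tested. WWC1, an upstream regulator, did not overlap, at 34.0 in KLE and 50.5 in HEC59, against 0.120 to 28.97 in the other lines (log2 difference 2.74, SE 1.08, limma adjusted p = 0.954). F3, which encodes tissue factor, reached 66.9 in HEC59 and 18.3 in KLE, against at most 7.10 in the other lines (log2 difference 3.70, SE 0.836, limma adjusted p = 0.543). MYOF, a membrane repair gene, was at 68.8 and 75.8 in KLE and HEC59 and at 62.0 in 1321N1, the highest of the others. BIRC5 was at 11.6 in KLE and 15.7 in HEC59, against 26.5 to 70.3 in the other lines (log2 difference -1.56, SE 0.431, limma adjusted p = 0.671).

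**Figure D5:**
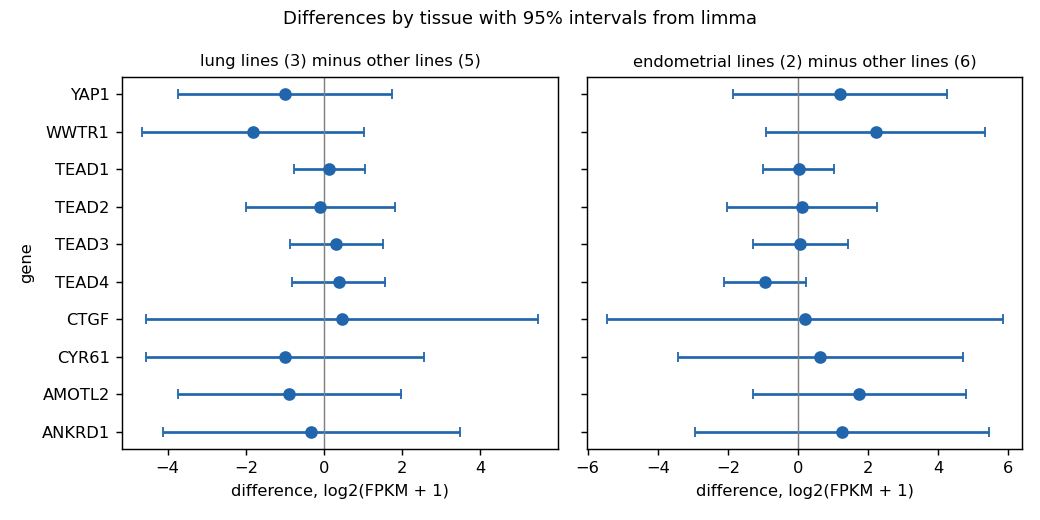
Difference in log2(FPKM + 1) of each member between the 3 lung lines and the other 5 (left panel) and between the 2 endometrial lines and the other 6 (right panel). Points are limma estimates, bars their 95% intervals, and every interval includes 0.

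By pattern over the 8 lines, the genes most like each of YAP1, WWTR1, CTGF and CYR61 were taken from 12051 tested genes that reached an FPKM of 5 in some line. The highest r of so many genes over 8 lines is a selected value, and none was computed without H146 and H716. Most like YAP1 were TGIF1, a homeobox repressor of TGF-beta signalling (r = 0.979, rho = 0.643), CNN2, which encodes calponin 2 (r = 0.976, rho = 0.833), and NBEAL1 (r = 0.967, rho = 0.762). TGIF1 was at 0.912 in H146 and 10.4 in H716 and at 33.5 to 124 in the other lines. Most like WWTR1 were its antisense gene WWTR1-AS1 (r = 0.990, rho = 1), the target MYOF (r = 0.987, rho = 0.905) and TFG (r = 0.980, rho = 0.976). Exons of WWTR1 and WWTR1-AS1 overlap and the strand setting is not stated, so shared reads may enter their likeness. For CTGF they were BVES, YIPF5 and KLHL5, with r of 0.967, 0.945 and 0.943, and for CYR61 RP1-56K13.3, FERMT2 and BCL9L, with r of 0.968, 0.962 and 0.961. FERMT2, which encodes the integrin adaptor kindlin-2, was at 0.409 in H146 and 67.5 in COV318, the lines where CYR61 was lowest and highest.

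By Pearson's r, the members differed in their relation to ERBB4, which the series describes all lines as expressing. Pearson's r with ERBB4 over the 8 lines was 0.556 for YAP1 and 0.199 for WWTR1, 0.648, 0.420, 0.356 and 0.340 for TEAD1, TEAD2, TEAD3 and TEAD4, and 0.248 for CYR61, 0.169 for AMOTL2, -0.0913 for CTGF and -0.0963 for ANKRD1. Over the 6 lines without H146 and H716 it was 0.809 for YAP1 and 0.497, 0.347, 0.423 and 0.0951 for TEAD1, TEAD2, TEAD3 and TEAD4. It turned negative for WWTR1, at -0.363, CYR61, at -0.401, and AMOTL2, at -0.136, and was -0.535 for CTGF and -0.369 for ANKRD1. These are descriptions over unlike lines.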

How the data were processed

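RNA from 8 cell lines was sequenced, 1 library each. The authors deposited FPKM values by Ensembl identifier, as the file headers show. CASAVA 1.4, TopHat2 2.0.8, SAMtools 1.0 and the build GRCh37 are named, per the submitters' processing notes. The FPKM program, annotation release and strand setting were not stated in the sources used here.

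Values were taken as log2(FPKM + 1), which understates differences of low genes. The 15650 genes that reached an FPKM of 1 in 2 lines or more entered a fit by limma 3.58.1 (R 4.3.3, trended eBayes), lung lines against the other 5 and endometrial lines against the other 6, with Benjamini-Hochberg adjustment over all genes and a threshold of 0.05. The fit was tested on simulated data in which every gene had the same spread. In the lung lines the SD on the log2 scale was 4.04 for CTGF and 0.886 for TEAD1. The simulation therefore does not show which changes in the members could be called. Lines of a tissue are different tumours, and p-values measure only the spread among these tumours. Depth is unknown, so no counting interval is given. Relative depth was read from values under 0.1, as the ratio most genes shared between a pair of lines, whose steps also separated H522, H661, KLE and H716 from 1321N1, HEC59, COV318 and H146. These sets entered a fit as a term.

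Members and gene lists were chosen with earlier results of these data known. Named besides the members were the 5 genes of each list with the widest range over the lines and the 3 genes most like YAP1, WWTR1, CTGF and CYR61. LATS1, F3, GADD45A, CCDC80, BIRC5 and the tissue markers were named after their values were seen. GENCODE v29 (GRCh38) gave names of overlapping genes only. Alternatives were pseudocounts of 0.1 and 5, no filter, upper-quartile scaling, quantile normalization, the sets as a term and leaving out each line. Leaving out lines for the pathway lists was added after seeing the data. A gene of the neuroendocrine list is not reported here and is left out of its counts and sums.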

Additional observations from a re-analysis of the deposited data

How the results depend on the processing

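Under 14 alternatives per comparison no member was called, with a smallest limma adjusted p of 0.610, and 243 of 280 member differences kept their direction. That count includes differences that could not turn. Dropping the filter leaves every member difference as it was. The set term leaves the endometrial differences as they were, because KLE and HEC59 fall in different sets. The lung comparison called 4 genes, and 11 with a pseudocount of 0.1, 2 with a pseudocount of 5, 1 without the filter and 2 when the sets entered as a term. Leaving out a line gave 1 (without COV318) to 16 (without H146), with 13 without H716, 8 without H661 and 2 without 1321N1 or HEC59. The endometrial comparison called 1 gene, 4 with a pseudocount of 5 and 20 without the filter. Leaving out a line gave 1 to 30 (without COV318), with 5 without H146, 4 without KLE and 2 without HEC59, where the endometrial line left is assumed to vary like the others. The median member range of 5.66 became 3.67 and the target score range of 3.33 became 2.08 with a pseudocount of 5. The correlation of 0.882 was 0.732 (without H146) to 0.930 when a line was left out, and 0.301 without H146 and H716, an alternative chosen after seeing the data. In the lung comparison ANKRD1 turned to 0.14 with a pseudocount of 0.1, TEAD2 to 0.083 with a pseudocount of 5 and CTGF to -0.19 with the set term. In the endometrial comparison TEAD2 turned to -0.062 and TEAD3 to -0.018 with a pseudocount of 5. Signs also turned when lines were left out. Lung differences then ran from -2.15 to 0.83 for YAP1, -0.25 to 0.62 for TEAD1, -0.74 to 0.999 for TEAD2, -0.067 to 0.94 for TEAD3, -0.086 to 0.88 for TEAD4, -1.22 to 2.70 for CTGF, -2.23 to 1.08 for CYR61, -1.69 to 0.29 for AMOTL2 and -1.21 to 0.72 for ANKRD1. Endometrial differences ran from -0.15 to 0.20 for TEAD1, -0.40 to 0.62 for TEAD2, -0.14 to 0.27 for TEAD3, -3.50 to 3.88 for CTGF, -0.29 to 1.45 for CYR61 and -1.78 to 4.29 for ANKRD1. The cause was not tested. No paired analysis was possible because the replicate numbers only name lines and pair none.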
